A study of Homo sapiens with 25 samples.

Results

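The regions described here are stretches of chromatin away from gene ends that carried acetylated lysine 27 of histone H3 (H3K27ac) in every H3K27ac library of a human endoderm differentiation series. Peaks of the 8 deposited H3K27ac peak lists were pooled and merged, merged regions on chromosomes 1 to 22 and X that lay over 2 kb from the start and the end of every annotated RefSeq gene were called distal, and the distal regions that overlapped a peak in all 8 lists were kept. This left 989 regions out of 263516 distal regions, or 0.375% of them, and out of 324997 merged regions in all. The regions were thus selected on H3K27ac peaks in these lists, and H3K27ac values are given below as a description without a test.

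All libraries came from H1, a long-established line of human embryonic stem cells, at 4 stages on the way to the pharynx: the stem cells themselves (hESC), definitive endoderm (hDE), foregut endoderm of anterior type (hAFE) and foregut endoderm of pharyngeal type (hPFE). Each stage had 2 H3K27ac libraries. Dimethylated lysine 4 of histone H3 (H3K4me2) was profiled in 2 hESC, 2 hDE, 1 hAFE and 1 hPFE library, and trimethylated lysine 27 (H3K27me3) in 2 hESC, 2 hDE, 1 hAFE and 2 hPFE libraries. The labels name no further treatment or time, do not say whether replicates were separate cultures, and mark the hESC H3K27ac and H3K27me3 libraries as re-analysed from an earlier deposit, so for these marks the hESC stage and that earlier data set cannot be told apart.

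Active enhancers and promoters carry H3K27ac on the nucleosomes that flank them, placed there mainly by the acetyltransferases CBP and p300. H3K4me2 marks promoters and enhancers whether they are active or only primed, whereas H3K27me3 is laid down by Polycomb repressive complex 2 on the same lysine that is acetylated in H3K27ac. Enhancers are usually more restricted to a cell state than promoters are.

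Distance from the ends of annotated genes did not make all of these regions distal to transcription starts. A further RefSeq table lists transcript starts inside genes, for all but 1 of the chromosomes used. Of the 959 regions that could be assessed with it, 346 (36.1%) lay within 2 kb of such a listed start, 200 of them overlapping it, against 1.87% of all distal regions on the same chromosomes. The other 613 had no listed start within 2 kb, and 30 regions on a chromosome without listed starts were not assessed. The regions are therefore called by their rule below, as regions in all 8 lists, and not enhancers. Nearness to a listed start was also common among distal regions with a peak in exactly 7 lists. Of the 860 of these that could be assessed, 198 lay within 2 kb of one. Nearness is therefore not read as a trait of presence in all 8 lists alone, and these shares take no account of width.

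The 250 bases before a listed start are printed for the 5 regions that held one among the 12 whose H3K27ac ranked highest in its weakest list. The others of the 12 had no listed start within 2 kb, and their sequence is not shown. The windows were thus chosen at transcript starts and do not stand for all 12. Sequences are from RefSeq (GRCh38.p14), read 5′ to 3′ on the minus strand, the strand of all 5 starts. Capitals mark matches on either strand to the GC box (GGGCGG), the CCAAT box (CCAAT), the TATA box (TATAAA), the AP-1 motif (TGANTCA), the TEAD motif (GGAATG) and the NRF1 motif (CGCATGCG). N stands for any base, so the AP-1 motif is matched loosely. The windows are chr5:180810457-180810706 in MGAT1, chr9:128656848-128657097 in DYNC2I2, chr3:177196479-177196728 in TBL1XR1, chr5:179624601-179624850 in HNRNPH1 and chr5:111757730-111757979 in NREP.
MGAT1: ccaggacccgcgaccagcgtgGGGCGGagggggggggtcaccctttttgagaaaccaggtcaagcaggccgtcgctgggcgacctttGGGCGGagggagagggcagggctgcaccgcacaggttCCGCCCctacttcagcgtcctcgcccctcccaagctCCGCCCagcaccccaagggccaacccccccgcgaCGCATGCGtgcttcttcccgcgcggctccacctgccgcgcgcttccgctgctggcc
DYNC2I2: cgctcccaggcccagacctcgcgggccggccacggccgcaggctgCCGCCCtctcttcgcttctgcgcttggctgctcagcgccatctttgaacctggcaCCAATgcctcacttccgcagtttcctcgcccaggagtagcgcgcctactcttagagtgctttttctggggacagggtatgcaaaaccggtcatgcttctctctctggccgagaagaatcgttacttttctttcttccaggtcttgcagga
TBL1XR1: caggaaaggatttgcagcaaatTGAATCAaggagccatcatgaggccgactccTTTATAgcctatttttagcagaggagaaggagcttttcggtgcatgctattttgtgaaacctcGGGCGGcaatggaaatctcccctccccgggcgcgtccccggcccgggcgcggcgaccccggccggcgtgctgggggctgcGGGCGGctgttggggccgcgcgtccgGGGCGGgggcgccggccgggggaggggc
HNRNPH1: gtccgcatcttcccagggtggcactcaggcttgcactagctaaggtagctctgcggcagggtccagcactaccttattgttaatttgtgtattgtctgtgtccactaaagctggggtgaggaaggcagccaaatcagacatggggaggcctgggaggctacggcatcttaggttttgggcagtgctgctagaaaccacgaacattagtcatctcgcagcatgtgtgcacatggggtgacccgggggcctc
NREP: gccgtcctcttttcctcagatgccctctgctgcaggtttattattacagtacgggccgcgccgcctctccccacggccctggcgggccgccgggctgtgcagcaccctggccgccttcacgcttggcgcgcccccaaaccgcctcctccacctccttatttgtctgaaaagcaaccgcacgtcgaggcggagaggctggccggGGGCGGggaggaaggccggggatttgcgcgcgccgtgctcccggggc

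The 5 sequences were not alike. The MGAT1 window held 24 CpG dinucleotides, 4 GC boxes and the NRF1 motif, and the NREP window 26 CpG dinucleotides and 1 GC box. The TBL1XR1 window held 25 CpG dinucleotides with 3 GC boxes, and the DYNC2I2 window 17 with 1 GC box and 1 CCAAT box. The TBL1XR1 window also matched the letters of the TATA box and, as TGAATCA, the loose AP-1 motif. Both of these matches lay toward the end of the window farthest from the start. The HNRNPH1 window held 6 CpG dinucleotides, had a GC content of 55.2% and matched none of the 6 motifs.

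Across all 266 listed starts inside the regions, which belong to 188 genes, windows of 300 bases (250 before to 50 after the start) held the GC box in 55.3%, against 45.0% of all 34961 listed starts. The CCAAT box was in 36.5% against 34.6%, and the NRF1 motif in 3.38% against 2.03%. The TATA box was in 5.64% against 11.5%, the AP-1 motif in 5.64% against 7.68% and the TEAD motif in 10.5% against 14.0%. Windows inside the regions had a median of 21 CpG dinucleotides, against 14 for all listed starts, and a median GC content of 62.8% against 58.7%. Starts of one gene share sequence, a match is only a match of letters, and these shares carry no test.

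The H3K27ac lists held between 24871 and 111256 peaks, with the shortest list in hAFE replicate 2; read depth is not given in the lists, so the precision behind a peak is unknown. As a check of the stage labels, peaks within 1 kb of either end of marker genes were counted. All 6 stem cell markers had H3K27ac in both hESC libraries and all 8 definitive endoderm markers in both hDE libraries. The stem cell markers were also acetylated in both libraries of later stages for 3 of 6 in hDE and in hPFE and for 2 of 6 in hAFE, and the definitive endoderm markers for 0 of 8 in hESC and 1 each in hAFE and hPFE. Of 5 anterior foregut markers 4 had it in both hAFE libraries (all but PAX9). In both hPFE libraries 3 of the 5 had it, and 1 of the 5 each in both hESC and both hDE libraries. Of the pharyngeal markers, FOXA2, SHH, FOXE1, ISL1 and MEIS2 had it in both hPFE libraries, and PAX9, PAX1, TBX1 and EYA1 did not. FOXA2, ISL1 and MEIS2 also had it in both hAFE libraries, and FOXA2 and MEIS2 in both hDE libraries. The check thus separates hAFE from hPFE only weakly. Of 12 markers of neural, mesodermal, blood, endothelial and liver cells, 0 had it in both hESC, hAFE or hPFE libraries, and 1, ALB, in both hDE libraries.

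Presence in every library was rare away from gene ends. Of the 263516 distal regions, 200201 were in 1 list, 43481 in 2, 9672 in 3, 4776 in 4, 2096 in 5, 1411 in 6, 890 in 7 and 989 in 8. Of 61481 merged regions within 2 kb of a gene start or end, 6521 (10.6%) were in all 8 lists, so that the distal regions made up 13.2% of the 7510 regions found everywhere. Among the 890 distal regions in exactly 7 lists, the missing list was hAFE replicate 2 for 360 (40.4%), hESC replicate 2 for 195, hESC replicate 1 for 104 and hAFE replicate 1 for 14. The number of regions in all 8 lists depended on the peaks and on the rule of presence. It was 436 when each list was shortened to as many of its strongest peaks as the shortest list held, 452 with peaks of −log10 p of at least 5, and 2917 when 1 library of each stage was enough. It was 613 without regions at listed starts and the 30 not assessed, a setting added after the data were seen.

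The regions in all 8 lists were wide. Their median width was 1518 bp, with quartiles of 1024 and 2321 bp, against a median of 209 bp for the other distal regions, and merging peaks of more lists itself makes a wider region. The widest was 9455 bp in MYH9, the gene of non-muscle myosin heavy chain IIA, at chr22:36327033-36336487. The next were 7903 bp in CTNND1, the gene of p120-catenin, at chr11:57775372-57783274, and 7247 bp in DTNA, the gene of dystrobrevin alpha, at chr18:34655778-34663024. The narrowest were 291 bp near ACBD3 (chr1:226121657-226121947), 292 bp near DHRS7B (chr17:21099094-21099385) and 309 bp in FSTL3, the gene of a follistatin-like antagonist of activin (chr19:680708-681016).

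A shared region was not always a shared peak. The bases covered by a peak in all 8 lists had a median of 198 bp, and 210 regions (21.2%) had no base covered in all 8. The strongest summits of the 8 lists spanned a median of 584 bp within a region, and in 155 regions (15.7%) they lay within 200 bp of each other. The region with the longest common stretch, 1951 bp, lay in STARD13.

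**Figure D1:**
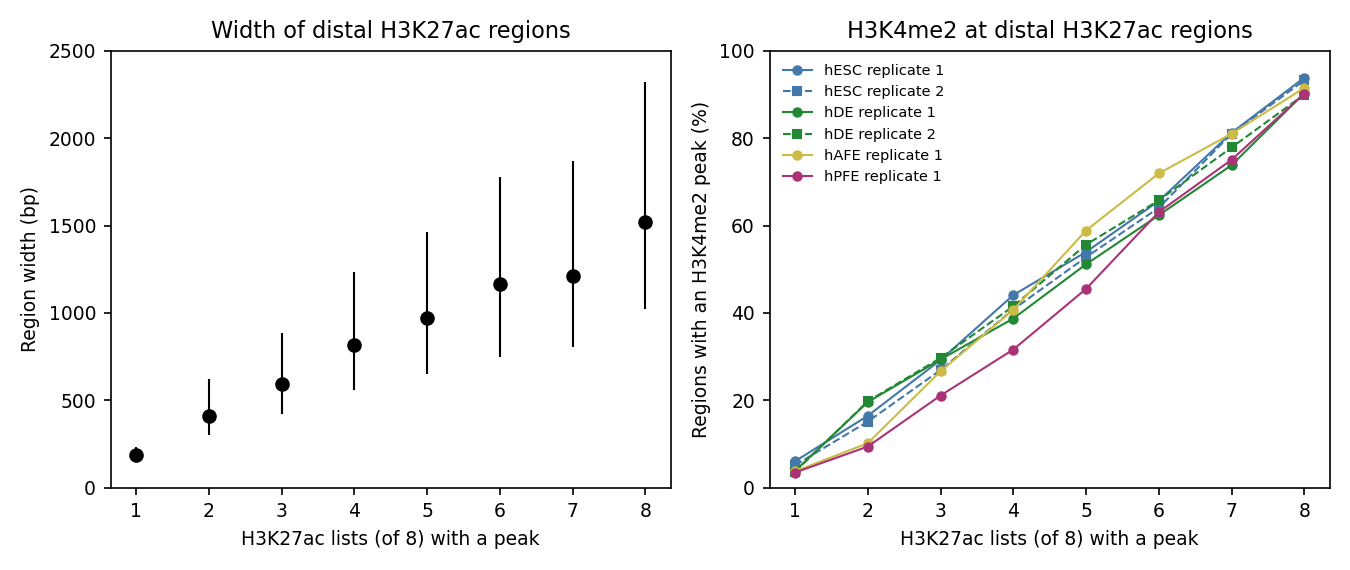
Left, width in bp of distal H3K27ac regions by the number of H3K27ac lists with a peak in them, as median (point) and quartiles (line). Right, share of these regions in percent with a peak in each of 6 H3K4me2 libraries. Width and H3K4me2 shares were highest for regions in all 8 lists, with a median of 1518 bp and shares from 89.99% to 93.8%.

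The regions lay nearer to genes than the other distal regions did and more often inside them. The median distance to the nearest end of any gene was 9.90 kb against 18.6 kb, and to the nearest end of a protein-coding gene 17.9 kb against 51.7 kb. Of the 989 regions, 737 (74.5%) were inside a protein-coding gene, against 57.2% of all distal regions. Regions in exactly 7 lists came close to these values. Their median distances were 11.1 kb and 22.1 kb, and 68.1% were inside a protein-coding gene. Of 631 regions inside a single protein-coding gene of known strand, 411 were nearer to its start than to its end, and the median distance from the start over all 631 was 25.6 kb. This position was not computed for other distal regions, so it is not read as a trait of the regions in all 8 lists. The share of a chromosome's distal regions that were in all 8 lists was highest on chromosome 19 (69 of 3971, 1.74%), then on chromosome 22 (0.861%) and chromosome 1 (0.621%), and lowest on chromosome 21 (5 of 3145, 0.159%).

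Some regions lay in groups. Of the 989, 299 had another within 12.5 kb, in 140 groups, of which 18 held 3 or more. How often other distal regions have such a neighbour was not counted, so grouping is not read as a trait of these regions. Only peaks that touched were merged, and merging peaks up to 500 bp apart left 904 regions in all 8 lists. The largest group was 4 regions over 21986 bp near PTMA, the gene of prothymosin alpha, at chr2:231666165-231688150. A group of 3 over 18691 bp lay near PIM1, the gene of a serine/threonine kinase, at chr6:37124198-37142888. Groups of 3 also lay near CHD2 and ZNF608, in MACF1, the gene of a large protein that links actin and microtubules, and near DDIT4, the gene of an inhibitor of mTORC1 signalling.

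The place of a region in a list is given as a percentile: the share of that list's peaks whose fold enrichment over input, as the authors' lists give it, ranks at or below that of the strongest peak in the region. Percentiles refer to lists of different length, so a percentile that differs between 2 lists shows no change in acetylation. The median percentile of the 989 regions was 86.6 and 85.3 in the hESC lists, 89.1 and 90.3 in hDE, 84.4 and 73.0 in hAFE, and 89.2 and 91.5 in hPFE. The lowest of these medians was that of hAFE replicate 2, the shortest list, which also held the lowest percentile of 325 of the 989 regions.

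Few regions ranked high everywhere. A percentile of 90 or more in all 8 lists was reached by 42 regions, 75 or more by 208 and 50 or more by 467, while 522 fell below the 50th percentile in at least 1 list. The lowest percentile over the 8 lists had a median of 47.2 and ranged from 0.0146 to 98.9. The regions with the lowest such values were near WAC (0.0146), CCND2, the gene of cyclin D2 (0.155), and TMEM217 (0.201), and their highest percentiles were 83.0, 97.2 and 87.7.

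**Figure D2:**
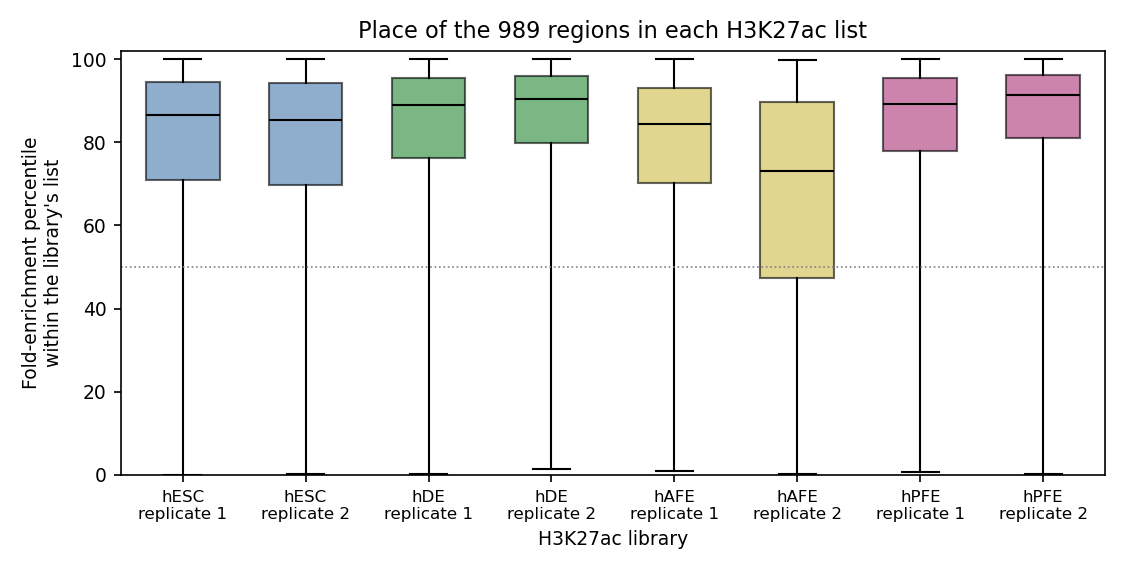
Fold-enrichment percentile of the 989 regions within each of 8 H3K27ac lists; boxes give the quartiles and the median, whiskers the lowest and highest region, colours the stage, and the dotted line the middle of the list. Medians lie between 84.4 and 91.5 in 7 lists and at 73.0 in hAFE replicate 2, and every list holds some of these regions near its bottom.

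The region with the highest weakest rank lay inside HDGF, the gene of hepatoma-derived growth factor, 3297 bp from the end of MRPL24, which encodes a mitochondrial ribosomal protein (chr1:156746013-156747187). Its fold over input was 11.2 and 12.0 in hESC, 14.6 and 14.7 in hDE, 17.1 and 9.34 in hAFE, and 13.2 and 13.0 in hPFE. All 8 values lay near the top of their lists, with percentiles from 98.9 to 99.96. Its H3K4me2 fold was 10.6 and 10.6 in hESC, 6.81 and 6.89 in hDE, 5.92 in hAFE and 6.01 in hPFE.

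The region inside DYNC2I2, which encodes an intermediate chain of the ciliary dynein-2 motor, overlapped a listed start of that gene and lay near SPTAN1, the gene of alpha-II spectrin (chr9:128655845-128657784). Its fold was 7.46 and 13.7 in hESC, 18.6 and 22.9 in hDE, 17.3 and 10.4 in hAFE, and 23.1 and 40.7 in hPFE. The other 7 percentiles were above 99, that of hESC replicate 1 being 97.5.

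The region in MGAT1, which encodes the enzyme that starts the branching of N-glycans into hybrid and complex forms, was 2820 bp wide (chr5:180809385-180812204) and held the start printed above. Its fold was 10.3 and 8.33 in hESC, 15.1 and 20.6 in hDE, 10.95 and 7.82 in hAFE, and 13.5 and 9.90 in hPFE. The percentiles ran from 97.8 to 99.9. A region near CROCC, the gene of the ciliary rootlet protein rootletin, at chr1:16903040-16905236, had percentiles from 97.9 to 99.9. It lay 6897 bp from RNU1-2, one of several near-identical genes of U1 small nuclear RNA, and how reads that match several copies were placed is not given in the sources used here.

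The other 8 of the 12 most evenly high regions had weakest percentiles between 94.5 and 96.9. They lay near RPS6KA1, the gene of a kinase downstream of ERK (chr1:26619195-26622192), near PIM1 (chr6:37135668-37140039) and in TBL1XR1, the gene of a subunit of the NCoR and SMRT corepressor complexes (chr3:177193255-177197288). Others were near PCDH1, which encodes a protocadherin (chr5:141847682-141850489), in HNRNPH1, which encodes an RNA-binding splicing regulator (chr5:179623867-179625254), and in TLK1, the gene of a kinase that acts on histone chaperones (chr2:171158822-171161006). The last were in STARD13 (chr13:33541085-33544478), and in NREP (chr5:111757301-111759270). All 12 had an H3K4me2 peak in all 6 libraries and an H3K27me3 peak in 0 of 7.

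Presence in every list did not mean the same rank at every stage. In 182 regions (18.4%) both libraries of one stage lay at least 30 percentile points above both libraries of another, and in 45 by at least 50 points. The low stage of the 182 was hAFE, which has the 2 shortest lists, in 85, hESC in 52, hDE in 29 and hPFE in 16. The widest gap was in ZNF875, a zinc finger gene on chromosome 19, over a listed start (chr19:37334594-37335328). Its percentiles were 95.6 and 80.6 in hESC, 95.9 and 99.1 in hDE, 94.0 and 92.5 in hPFE, but 11.3 and 4.37 in hAFE. Its H3K4me2 fold was 6.87 and 6.54 in hESC, 2.46 and 7.46 in hDE, 4.29 in hAFE and 8.60 in hPFE, so the hAFE value lay between those of the 2 hDE libraries.

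In RPGRIP1, which encodes a photoreceptor cilium protein (chr14:21308993-21309751), the percentiles were 6.85 and 5.52 in hAFE against 90.4 and 95.8 in hESC. The hESC libraries were low instead in SLC12A7, the gene of a potassium-chloride cotransporter (chr5:1101774-1103475), with percentiles of 0.713 and 14.6 against 95.6 and 92.7 in hDE, and near LGALS8, the gene of galectin-8 (chr1:236501852-236504174), with 14.0 and 4.74 against 89.7 and 94.3 in hPFE. Near FAM156A (chrX:52933828-52934683) the hDE libraries were low, at 14.9 and 19.1 against 93.6 and 95.1 in hAFE. In EXT2, which encodes a heparan sulfate polymerase (chr11:44243871-44245512), the hPFE libraries were low, at 19.2 and 15.4 against 93.8 and 90.4 in hAFE.

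In the SLC12A7, FAM156A and EXT2 regions the H3K4me2 values were lowest in the stage that ranked lowest for H3K27ac. SLC12A7 had an H3K4me2 fold of 2.93 and 2.34 in hESC against 5.27 and 6.26 in hDE, 4.70 in hAFE and 3.26 in hPFE. FAM156A had 2.46 and 2.95 in hDE against 5.95 and 6.11 in hESC, 5.17 in hAFE and 3.43 in hPFE. EXT2 had 3.13 in hPFE against 4.53 and 3.73 in hESC, 4.74 and 6.97 in hDE and 6.07 in hAFE. In RPGRIP1, where the hAFE lists ranked lowest, the H3K4me2 fold was 2.17 in hAFE and 4.13 to 5.70 in hESC and hDE, and hPFE had no H3K4me2 peak. The LGALS8 region gave no such order, with 4.12 and 4.75 in hESC and 3.24 to 5.25 in the other libraries.

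**Figure D3:**
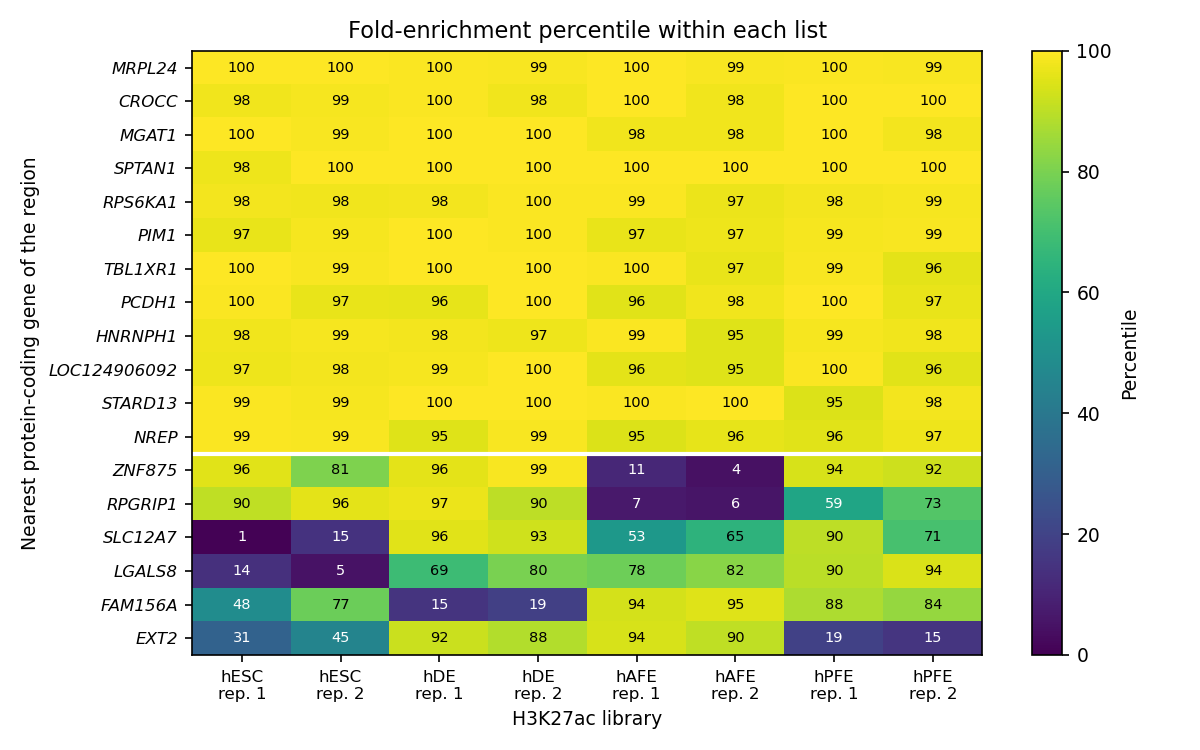
Fold-enrichment percentile within each H3K27ac list (columns) of the 12 regions with the highest weakest percentile (above the white line) and of the 6 with the widest gap between stages (below), named by the nearest protein-coding gene; colour and number give the percentile. The upper rows stay above 94 throughout, while each lower row has both libraries of 1 stage below 20.

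Over the 989 regions the percentiles of 2 libraries of the same stage had a Spearman correlation of 0.509 to 0.828 (median 0.575, 4 pairs), and those of different stages 0.187 to 0.471 (median 0.304, 24 pairs). H3K27ac and H3K4me2 percentiles, over the 765 regions with H3K4me2 in all 6 libraries, had a Spearman correlation of 0.180 to 0.281 within a stage (median 0.233, 12 pairs) and of -0.0293 to 0.198 between stages (median 0.116, 36 pairs). The points are regions, which share libraries, inputs and width, and these are descriptions.

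H3K4me2, which played no part in the choice, was present at most of the regions. A peak was found in 93.8% (95% exact Clopper-Pearson interval 92.1 to 95.2%) and 93.2% of them in the hESC libraries, against 10.6% and 9.54% of all distal regions. The shares were 90.3% and 89.99% in hDE (9.27% and 9.31% of all distal regions), 91.5% in hAFE (7.73%) and 90.2% in hPFE (6.86%). The intervals cover counting error only.

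The mean over the 6 libraries was 91.5% ± 1.67 (SD, n = 6) for the regions in all 8 lists and 8.58% ± 1.36 (SD, n = 6) for the other distal regions, a difference of 82.9 percentage points that ranged from 81.0 to 84.1. The share was higher in 6 of 6 libraries, with an exact two-sided sign-flip permutation p of 0.03125, the smallest that 6 libraries allow, and 0.0625 after Benjamini-Hochberg adjustment over 2 tests, which misses 0.05. Libraries of 1 stage may not be independent, since the labels do not say whether they were separate cultures. With the mean of each stage as the unit (n = 4), the difference was 83.2 points. The sign-flip permutation p was then 0.125, the smallest that 4 units allow, and the adjusted p 0.25. The difference shrank to 53.9 points when the summit of a region's strongest H3K27ac peak had to lie in the H3K4me2 peak, to 29.4 points against regions in 5 to 7 lists, and to 13.2 points against regions in exactly 7 lists; its sign was the same in these settings.

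Among the other distal regions wider ones had H3K4me2 more often, and the shares are therefore given by width as well. Among regions in exactly 7 lists the share was instead highest under 1 kb. H3K4me2 in all 6 libraries was found at 765 of the 989 regions (77.4%), against 1.5% of all distal regions. It was found at 75% of those under 1 kb, 76.3% of those of 1 to 2 kb and 80.4% of those of 2 kb or wider. The shares in the same classes were 0.969%, 6.08% and 12.9% for the other distal regions, and 59.0%, 43.5% and 45.5% for regions in exactly 7 lists. The part of listed starts can be read in the same way: H3K4me2 was in all 6 libraries at 91.6% of the 346 regions near a listed start and at 69.3% of the 613 without one, against 0.826% of other distal regions without one.

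Where H3K4me2 was not in all 6 libraries, it was mostly missing in a few. It was in 5 libraries at 100 regions, in 4 at 51, in 3 at 29, in 2 at 20 and in 1 at 9. It was in every library but hPFE at 34 regions, in every library but hAFE at 18 and in every library but the pair from hDE at 12. Only 5 regions had it in both hESC libraries and in no later one, and 4 in all later libraries and in neither from hESC. Over all 989 regions, H3K4me2 peaks covered a median of 42.1% to 62.3% of a region's bases, depending on the library.

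**Figure D4:**
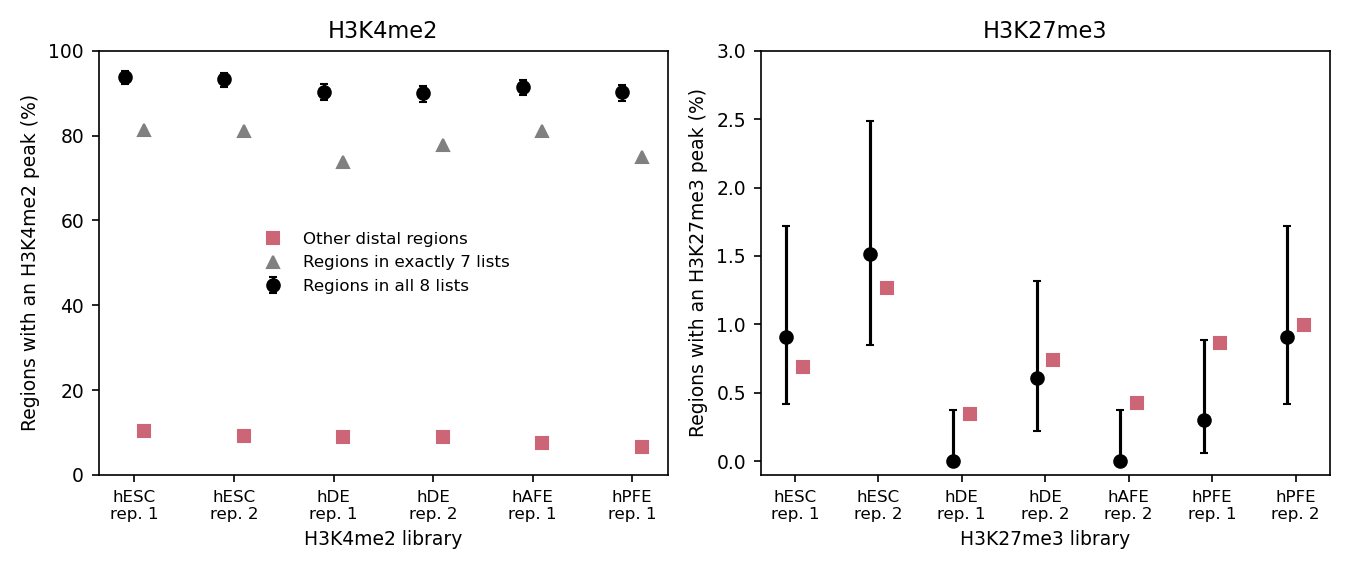
Share of regions in percent with an H3K4me2 peak (left, 6 libraries) or an H3K27me3 peak (right, 7 libraries, enlarged axis) for the 989 regions in all 8 H3K27ac lists (circles, with exact 95% binomial intervals), other distal regions (squares) and, for H3K4me2, regions in exactly 7 lists (triangles). H3K4me2 shares of 89.99% or more stand against 10.3% or less in the other distal regions, while the H3K27me3 shares of both lie at or below 1.52%.

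No H3K4me2 peak was found in any library at 15 regions, against 73.1% of all distal regions. These were mostly narrow, with a median width of 591 bp, and 9 of them were near a listed start. H3K4me2 lay close by: 11 of the 15 had a peak within 1 kb in all 6 libraries. The one with the highest weakest percentile lay in HNRNPL, the gene of a splicing regulator (chr19:38849506-38850000), with percentiles from 88.8 to 98.3 and H3K4me2 peaks 137 to 360 bp away.

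HNRNPH1 held both kinds of region within a short distance. The one without H3K4me2 (chr5:179622967-179623720) had an H3K27ac fold of 10.7 and 10.4 in hESC, 13.5 and 15.5 in hDE, 11.6 and 5.34 in hAFE, and 10.8 and 20.0 in hPFE, and lay 146 bp from the one described above, which had H3K4me2 in all 6 libraries. Others without H3K4me2 lay in MIB1, which encodes a ubiquitin ligase of Notch ligands (chr18:21740758-21741348), in ZFP1 (chr16:75148481-75148932), in CTBP2, the gene of a corepressor (chr10:125159501-125160288), and in NCOA2, the gene of a nuclear receptor coactivator. The lowest percentiles of these 4 were 86.7, 80.8, 69.0 and 83.9. In contrast, the region near PXDN (chr2:1640549-1642587), named after its values were seen, was 2039 bp wide and had its nearest H3K4me2 peaks 6619 to 14444 bp away.

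H3K27me3 was rare at the regions, as it was at other distal H3K27ac regions. A peak in any of the 7 libraries was found at 35 of 989 (3.54%), against 3.56% of all distal regions. Most distal regions were in 1 list, with a median width of 185 bp and a share of 3.11%. Regions in 5, 6 and 7 lists had higher shares, of 6.87%, 7.09% and 4.94%. In hESC it was at 9 and 15 regions (0.910% and 1.52%, all distal regions 0.687% and 1.27%) and in hDE at 0 and 6 (0% and 0.607%, all distal regions 0.341% and 0.74%). In hAFE it was at 0 (all distal regions 0.426%) and in hPFE at 3 and 9 (0.303% and 0.910%, all distal regions 0.866% and 0.993%). A count of 0 of 989 allows a share of up to 0.303% by the rule of 3 counts, and of up to 0.372% by the exact two-sided 95% interval.

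The mean share was 0.607% ± 0.554 (SD, n = 7) against 0.760% ± 0.319 (SD, n = 7) for the other distal regions. The difference was -0.154 percentage points, lower in 5 of 7 libraries, with an exact two-sided sign-flip permutation p and adjusted p of 0.25; 7 libraries could reach 0.015625. This depended on the peaks used and on the regions compared. With H3K27ac peaks of −log10 p of at least 5 the difference was -0.569 points with an adjusted permutation p of 0.03125. With H3K27ac peaks up to 500 bp apart merged it was 0.601 points. Against regions in 5 to 7 lists it was -1.002 points with an adjusted permutation p of 0.03125. Against regions in exactly 7 lists it was -0.597 points with an adjusted permutation p of 0.0625.

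The region with H3K27me3 in most libraries, 3 of 7, lay in SKIDA1 (chr10:21516943-21520432). Its H3K27me3 fold was 3.63 and 4.29 in hESC and 3.14 in hPFE replicate 2, and its H3K27ac fold was 3.51 and 3.32 in hESC, 12.1 and 11.8 in hDE, 9.30 and 6.74 in hAFE, and 7.32 and 5.45 in hPFE. The region in PTCH1, the gene of the hedgehog receptor (chr9:95511179-95512929), had H3K27me3 in both hESC libraries, at 9.58- and 12.0-fold. Its H3K27ac fold was 3.72 and 4.88 in hESC, 3.99 and 8.50 in hDE, 7.49 and 5.84 in hAFE, and 13.9 and 7.78 in hPFE. Its H3K27ac percentiles were 67.7 and 87.4 in hESC and 63.3 and 91.6 in hDE. They were 90.1 and 91.1 in hAFE and 99.7 and 96.7 in hPFE. No later library had an H3K27me3 peak there. Both hESC libraries also had H3K27me3 at the region in KDM6B, the gene of an H3K27 demethylase (chr17:7840694-7842267), in DAB2IP and in ZNF521, and both hPFE libraries at the one in XKR6. In KDM6B the H3K27ac percentiles were 87.3 and 85.4 in hESC and 88.9 and 94.9 in hDE. They were 88.1 and 74.0 in hAFE and 81.6 and 54.5 in hPFE. No H3K27me3 peak was found in KDM6B after hESC. All 6 of these regions had H3K4me2 in all 6 libraries, and peaks of a bulk population do not say whether the marks lay on the same alleles or cells.

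The 989 regions were nearest to 767 protein-coding genes, 5.05% of the 15174 genes that were nearest to any distal H3K27ac region. Of these, 592 were nearest to 1 region, 142 to 2 and 33 to 3 or more. MACF1 had 8, ADGRL2, the gene of an adhesion receptor of the latrophilin family, had 5, and PIM1, PTMA, ZNF608, DDIT4, LOC124900275, LOC124901483 and MYH9 had 4 each. Genes with many distal regions have more chances: those nearest to a region in all 8 lists had a median of 20 distal regions, against 7 over all such genes. The nearest gene need not be the gene a region acts on.

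Genes were then counted in lists by role, each beside the list's median number of distal regions per gene. Of the genes of the actin cytoskeleton and adhesion, 10 of 25 (40.0%; median 32 distal regions) were nearest to a region. Examples were FLNA, which encodes filamin A (chrX:154368205-154371224, percentiles 89.4 to 98.7), TPM4, which encodes a tropomyosin (chr19:16076457-16080352, 75.1 to 98.6), and MYH9 (chr22:36360126-36364855, 64.9 to 96.5). Of the YAP and TEAD pathway 4 of 20 (20.0%; median 28) were, among them the DNA-binding factor TEAD1 (chr11:12862189-12867077, 70.6 to 99.3), its relative TEAD3 and AMOTL2, which encodes an angiomotin-like protein that retains YAP. Of epithelial genes 5 of 24 (20.8%; median 13.5) were, among them TJP1, which encodes the tight junction protein ZO-1 (chr15:29819928-29822481, 76.1 to 99.1), LLGL2 and the keratin gene KRT8 (chr12:52903931-52904997, 66.3 to 99.3).

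Of pluripotency genes 5 of 18 (27.8%; median 25.5) were nearest to a region in all 8 lists. The strongest lay in LIN28B, which encodes a protein that blocks maturation of let-7 microRNAs (chr6:104953844-104960654, 6811 bp), with percentiles from 92.5 to 99.96. LIN28A, its paralogue (chr1:26417230-26421943), had 88.3 to 99.9, and TRIM71, which encodes an RNA-binding protein and is itself a let-7 target (chr3:32838887-32845556), 87.1 to 93.6. Of definitive endoderm genes 1 of 19 (5.26%, median 30) was nearest to a region, against 5.05% of all genes nearest to a distal region. This was CDH2, the gene of N-cadherin, with the region 218471 bp away (chr18:27711473-27714408, 7.04 to 84.4). Of pharyngeal and anterior foregut genes 1 of 27 (3.70%; median 15) was, in MEIS2, the gene of a homeodomain cofactor (chr15:37044391-37046760, 54.7 to 95.2), and of neural genes 0 of 19 (median 10).

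Signalling pathways were counted in the same way. Of genes of FGF and ERK feedback, 5 of 18 (27.8%; median 42) were nearest to a region, among them the ERK antagonists SPRY4 (chr5:142355729-142358100, 79.1 to 96.5) and SPRY1 (chr4:123416324-123418615, 75.3 to 98.2). The ERK phosphatase gene DUSP6 was nearest to one of 25.9 to 90.4, 137649 bp away, with H3K4me2 in 1 of 6 libraries (chr12:89208589-89209586). Of WNT and TCF genes 3 of 19 (15.8%; median 29) were: ZNRF3, which encodes a ubiquitin ligase that removes WNT receptors (chr22:29003477-29006422, 85.2 to 98.2), TCF7L1 (chr2:85235093-85239309, 85.1 to 99.1) and TCF7L2 (chr10:113057703-113060808, 0.933 to 85.3). Of genes of TGF-beta and Nodal feedback, 0 of 21 were (median 12), and of BMP feedback 0 of 17 (median 39). The share over all genes nearest to a distal region was 5.05%. In lists this short a count of 0 lies near that share and is not read as a trait of a pathway. Differences between lists were not tested.

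The next lists also stand beside the 5.05% of all genes nearest to a distal region. Of AP-1 and immediate early genes 3 of 18 (16.7%; median 9) were nearest to a region: IER2 (chr19:13163216-13166105, 92.0 to 99.9), FOS (chr14:75258213-75259042, 18.4 to 98.1) and IER5 (chr1:181098710-181102119, 5.94 to 97.6). Of broadly expressed transcription factors 11 of 45 (24.4%, median 46) were. Among them were ZNF217 (chr20:53590631-53593697, 87.0 to 99.5), SOX11 (chr2:5372397-5373703, 318681 bp away, 81.8 to 93.0) and SOX13 (chr1:204077047-204080537, 73.9 to 97.7). Of chromatin regulators 6 of 29 (20.7%; median 17) were, among them ARID1B, which encodes a BAF complex subunit (chr6:157020484-157022140, 91.0 to 99.2), the DNA demethylation gene TET1 (chr10:68599187-68601728, 67.3 to 97.8) and the DNA methyltransferase gene DNMT3A (chr2:25252533-25253338, 40.0 to 96.7).

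Of growth and cell cycle genes 6 of 29 (20.7%; median 11) were nearest to a region, among them MYC, a growth regulator (percentiles 60.4 to 99.6), the receptor gene IGF1R (chr15:98670310-98672512, 59.0 to 89.3) and CDKN1A, which encodes the cell cycle inhibitor p21 (chr6:36666278-36668428, 34.5 to 97.0). Of glycolysis genes 2 of 16 (12.5%; median 10.5) were: SLC2A3, which encodes a glucose transporter (chr12:7969706-7971758, 60.4 to 99.1), and HK1, which encodes hexokinase 1 (chr10:69332111-69335478, 3.48 to 97.7). Of housekeeping genes 1 of 15 (6.67%; median 2) was, near ACTB (chr7:5555260-5556613, 46.0 to 94.0), against 5.05% of all genes nearest to a distal region. Of 24 microRNA host genes and nuclear long noncoding RNAs, 1 had the end nearest to a region among all annotated genes: a region lay 2272 bp from NEAT1 (chr11:65418429-65420526), with percentiles from 71.0 to 97.2. The other lists count the nearest protein-coding gene. No share over all annotated genes is given here, so this count is not read beside theirs.

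The listed starts of the nearest genes were not often acetylated throughout. Of 551 such genes with a listed start over 2 kb from a region, 96 (17.4%) had a peak of H3K27ac over a start window in all 8 lists, against 14.5% of all 15713 protein-coding genes with such a start. In none of the 8 lists was it found for 125 (22.7%), against 39.5% of all. The windows are 300 bases and peaks often flank a start, so these shares are low for both.

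At the thresholds of the rule, the nearest regions inside the 2 kb limit were 2001 bp from an end of KANSL1L (percentiles 68.2 to 98.6), 2008 bp from PTMS (45.5 to 93.3) and 2023 bp from LOC101929534 (30.9 to 95.6). The nearest outside were regions present in all 8 lists at 1999 bp from LOC105372261, 1995 bp from NSD1 and 1993 bp from C17orf58. The highest ranked regions in exactly 7 lists were near DIDO1 (chr20:62924799-62926597, percentiles 92.5 to 98.3 in the 7 lists), NBEAL2 (chr3:46975865-46976807, 92.2 to 99.4) and FMC1 (chr7:139359810-139360352, 90.8 to 99.7), and all 3 were missing from hAFE replicate 2. Over the 890 regions in 7 lists, the lowest percentile of the 7 had a median of 26.1, against 47.2 over 8 lists for the regions described here.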

How the data were processed

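Chromatin immunoprecipitation with sequencing was deposited as 1 narrowPeak list per library, called against the input of its stage with duplicates removed and a p threshold of 0.01, per the file headers and names; the submitters' processing notes name the build hg38, while aligner and peak caller are not given in the sources used. The deposited lists hold, for each peak, a score, a fold enrichment over input (a ratio), −log10 p and −log10 q values, and the summit's offset from the peak's start, as the authors' caller gave them. Input libraries were used only as the authors' controls. A supplier's name marks the H3K27me3 replicate 1 lists of hESC, hDE and hPFE.

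The regions, and all gene lists and named regions, were chosen with earlier results of these data known. Peaks that touched were merged, and 1 bp of overlap counted as presence. Distances use 59098 genes and 34961 transcript starts of the RefSeq tables (GRCh38.p14). Shares of regions with a mark were compared within each library, and the differences tested by all sign flips over libraries, with Benjamini-Hochberg adjustment over the 2 marks. The merging, overlap and test steps were tested on simulated peak lists. Python 3.11.15, numpy 2.4.6, pandas 2.3.3, scipy 1.17.1, statsmodels 0.14.6 and matplotlib 3.10.9 were used. Named regions were the 12 with the highest lowest percentile, the 6 with the widest gap between stages, the 6 strongest without H3K4me2, the 6 with H3K27me3 in most libraries, up to 3 genes per list, the 8 genes with most regions, the 3 widest and 3 narrowest, and the 3 nearest to each limit; LOC symbols are RefSeq's. Alternatives changed the distance, gene set, peak threshold, list length, merging, overlap and libraries. No genome sequence was used beyond the listed starts. A marker gene of the stage check is not reported here.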

Additional observations from a re-analysis of the deposited data

Results flagged for a closer look

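The difference in H3K27me3 share between the regions in all 8 lists and the other distal regions had opposite signs in different stages. It was above 0 in both hESC libraries, at 0.224 and 0.252 percentage points (mean 0.238), and below 0 in both hDE libraries, at -0.342 and -0.133 points (mean -0.238), and in both hPFE libraries, at -0.564 and -0.0830 points (mean -0.324). The difference between stages was not tested. The hESC values rest on 9 and 15 regions with a peak, with exact 95% binomial intervals of 0.417 to 1.72% and 0.851 to 2.49%. The shares of the other distal regions, 0.686% and 1.27%, lie inside these intervals. The same holds for both libraries of hDE and both of hPFE. The signs are therefore not read as a difference between stages. The hESC H3K27me3 libraries are the re-analysed ones, so stage and data set cannot be told apart.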

How the results depend on the processing

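No paired analysis was possible because the sets compared are sets of regions, each measured in the same libraries, so replicate numbers link no samples across them; the test itself takes the difference within each library. The number of regions in all 8 lists was 452 with H3K27ac peaks of −log10 p of at least 5, 485 with −log10 q of at least 2, 436 with lists of equal length, 2917 with 1 library of each stage and 613 without regions at listed starts (added after the data were seen); it was within 1.5 times of 989 in the other 6 settings, and 1000 to 1352 when the other 7 lists were required in turn. The H3K4me2 difference was 77.2, 79.3 and 72.4 points with the first 3 of these, each with an adjusted permutation p of 0.03125, because the p of the other test fell; its own p stayed at 0.03125. It was 79.7 to 83.3 points without single libraries, and its adjusted p ranged from 0.03125 to 0.25 over all settings. The H3K27me3 difference was -0.569, -0.432 and -0.881 points in the same 3 settings, -0.396 where the strongest H3K27ac summit had to lie in the H3K27me3 peak, -0.178 with H3K27me3 peaks of −log10 p of at least 5 and -1.002 against regions in 5 to 7 lists, each with an adjusted permutation p of 0.03125. It turned to 0.601 points with peaks up to 500 bp apart merged and to 0.321 with 1 library of each stage. It was -0.245 to -0.0562 points without single libraries, and without hPFE H3K27ac replicate 1, where it was -0.245, the adjusted permutation p was 0.03125; over all settings that p ranged from 0.03125 to 0.766. Why these values moved was not tested. Peak lists give no read depth, so a missing peak may lie below a list's threshold.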
